A study of Homo sapiens with 12 samples.

Results

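The 10 genes described here encode transcription factors of the luminal mammary lineage: the forkhead factor FOXA1, the GATA factor GATA3, the AP-2 factors TFAP2A, TFAP2B and TFAP2C, the ETS factors ELF3, ELF5, EHF and SPDEF, and the grainyhead factor GRHL2. They were chosen by symbol for their known role, but with earlier results of these data known. All 10 were found among the 27814 named genes of the count table. All 10 also passed the filter on low counts that left 16208 genes for testing, but TFAP2B did so through KO-labelled neratinib cells, where 3 of 3 libraries reached the filter level of 0.26 CPM (read counts scaled to a common library size), against 1 of 3 in KO-labelled DMSO and 0 of 3 in either parental group. RNA was sequenced in bulk from BT474, an established breast cancer cell line that carries amplified HER2 and expresses hormone receptors. The 4 groups were cells labelled BRD8 knockout (KO) given 200 nM neratinib for 4 h, parental cells given the same, KO-labelled cells in DMSO, and parental cells in DMSO, with 3 libraries each. BRD8 is a bromodomain protein of the chromatin-modifying EP400-TIP60 complex, and neratinib irreversibly inhibits the kinases of the ErbB receptor family, HER2 included. The labels give no clone, edit site or DMSO duration, and do not say that replicates came from separate cultures. The p-values therefore reflect only variation among the libraries, which may be technical.

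The luminal cells of the mammary gland line its ducts and alveoli, and these factors hold or shift their identity. FOXA1 is a pioneer factor that opens chromatin for the oestrogen receptor, and GATA3 is needed in mice for luminal cells to form and to stay differentiated. AP-2 factors bind GC-rich elements near ESR1 and ERBB2, the epithelium-specific ETS factors act in luminal and secretory cells, with ELF5 driving the milk-secreting alveolar fate in mice, and GRHL2 maintains epithelial junction genes such as CDH1.

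Luminal identity was checked first with 6 defining markers, KRT8, KRT18, KRT19, EPCAM, CDH1 and ESR1. Their summed level was 4570 to 4650 CPM in KO-labelled neratinib, 3930 to 3970 CPM in parental neratinib, 8460 to 8520 CPM in KO-labelled DMSO and 7790 to 7840 CPM in parental DMSO libraries. The 6 basal or myoepithelial markers, of which 4 passed the filter, summed to 18.3 to 20.9, 9.21 to 11.1, 16.4 to 17.4 and 10.8 to 11.4 CPM in those groups. All 4 groups therefore carried the luminal markers at a far higher level than the basal ones. The targeted gene did not check the genotype labels: BRD8 mRNA was at 67.4 ± 1.39 CPM in KO-labelled and 64.1 ± 0.706 CPM in parental cells in DMSO, and at 156.1 ± 2.44 CPM in KO-labelled and 235.6 ± 5.23 CPM in parental cells in neratinib (SD, n = 3 each). Its log2 fold change in DMSO was 0.07 (edgeR's quasi-likelihood test, adjusted p = 0.0189), a call that DESeq2 did not make (adjusted p = 0.106). Exons of BRD8 overlap those of KIF20A on the opposite strand, which had group means from 61.7 CPM in parental DMSO to 108 CPM in KO-labelled neratinib cells. The cells are therefore called KO-labelled throughout.

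Of the 10 genes, 8 had promoter windows in the RefSeq table for GRCh38.p14, 15 windows in all, each reaching from 250 bases before to 50 bases after a transcription start. The windows of ELF5, EHF and SPDEF are shown because these ETS genes moved with neratinib in opposite directions, ELF5 and EHF upward and SPDEF downward, and because each holds a forkhead motif, the kind of element that FOXA1 binds. Capitals mark matches, read on both strands, to the forkhead letters TGTTTAC or TATTTAC, and in EHF also to the GATA letters AGATAA. The ELF5 window is chr11:34511675-34511974 on the minus strand, the EHF window is the second of 2 for that gene at chr11:34632316-34632615 on the plus strand, and the SPDEF window is chr6:34556280-34556579 on the minus strand.
ELF5: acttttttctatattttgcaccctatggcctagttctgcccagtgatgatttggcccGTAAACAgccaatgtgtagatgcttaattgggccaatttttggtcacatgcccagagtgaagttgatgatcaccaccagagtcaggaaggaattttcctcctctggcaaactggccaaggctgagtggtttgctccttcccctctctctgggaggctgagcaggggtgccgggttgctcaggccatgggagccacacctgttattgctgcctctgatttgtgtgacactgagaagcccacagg
EHF: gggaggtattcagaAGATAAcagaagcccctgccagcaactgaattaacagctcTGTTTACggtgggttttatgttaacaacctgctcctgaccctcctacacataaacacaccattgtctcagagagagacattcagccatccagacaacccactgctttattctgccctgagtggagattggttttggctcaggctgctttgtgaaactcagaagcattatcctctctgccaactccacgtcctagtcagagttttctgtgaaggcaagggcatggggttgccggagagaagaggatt
SPDEF: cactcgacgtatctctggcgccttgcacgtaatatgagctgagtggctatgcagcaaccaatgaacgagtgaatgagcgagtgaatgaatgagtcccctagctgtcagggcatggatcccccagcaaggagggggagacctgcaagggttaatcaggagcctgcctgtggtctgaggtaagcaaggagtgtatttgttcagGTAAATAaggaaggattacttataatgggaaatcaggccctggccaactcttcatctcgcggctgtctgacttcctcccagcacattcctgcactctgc
A forkhead match also stood in the TFAP2B window. The first EHF window and the windows of FOXA1, GATA3, TFAP2A and ELF3 held none. Of all 35116 promoter windows, 5.97% held a forkhead match and 10.3% a GATA match. For the AP-2 letters GCCNNNGGC the share was 23.2%, and among these genes they occurred in 3 of the 6 windows of GATA3. The ETS letters CCGGAAG, found in 10.3% of all windows, occurred in 1 GATA3 window, and the grainyhead letters AACCNGTT, found in 1.73%, occurred in none of the 15. A match is a stretch of letters and not a measured binding site.

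Levels of different genes were compared per kilobase of exon, as CPM scaled between libraries by TMM (trimmed mean of M values) and divided by the length of all annotated exons. SPDEF stood highest of the 10 in every group, at 118.1 CPM per kilobase in KO-labelled neratinib, 192.4 in parental neratinib, 281.3 in KO-labelled DMSO and 326.8 in parental DMSO cells. On this per-kilobase scale that placed it between the 98.4th and 99.5th percentile of 13814 protein-coding genes tested. The order depends on the exon length used, 1914 bases for SPDEF and 3982 for FOXA1, whichever transcripts the cells made. Without that division FOXA1 was above SPDEF in every group, for example at 362.3 against 226.1 CPM in KO-labelled neratinib and 772.7 against 625.6 CPM in parental DMSO cells. TFAP2B stood lowest, at 0.148, 0.0132, 0.0427 and 0.0241 CPM per kilobase in the same groups.

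The order of the other 8 differed between groups. In KO-labelled neratinib cells the order after SPDEF was TFAP2C (105.7 CPM per kilobase), EHF (99.9), FOXA1 (91.0), GATA3 (49.9), ELF3 (44.0), ELF5 (36.8), GRHL2 (24.5) and TFAP2A (8.39). In parental DMSO cells it was FOXA1 (194.1 CPM per kilobase), GATA3 (126.5), TFAP2C (91.4), EHF (61.3), GRHL2 (43.7), ELF3 (21.0), TFAP2A (12.1) and ELF5 (10.0). FOXA1 and GATA3 thus had ranks 4 and 5 of the 10 in KO-labelled neratinib cells and ranks 2 and 3 in parental DMSO cells, and ELF5 moved up past TFAP2A and GRHL2. No pair of neighbours in any of the 4 orders overlapped between libraries, which does not cover error in the exon lengths. Leaving TFAP2B out, the level of the highest factor was 14.1 times that of the lowest in KO-labelled neratinib, 21.3 times in parental neratinib, 24.6 times in KO-labelled DMSO and 32.6 times in parental DMSO cells.

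**Figure D1:**
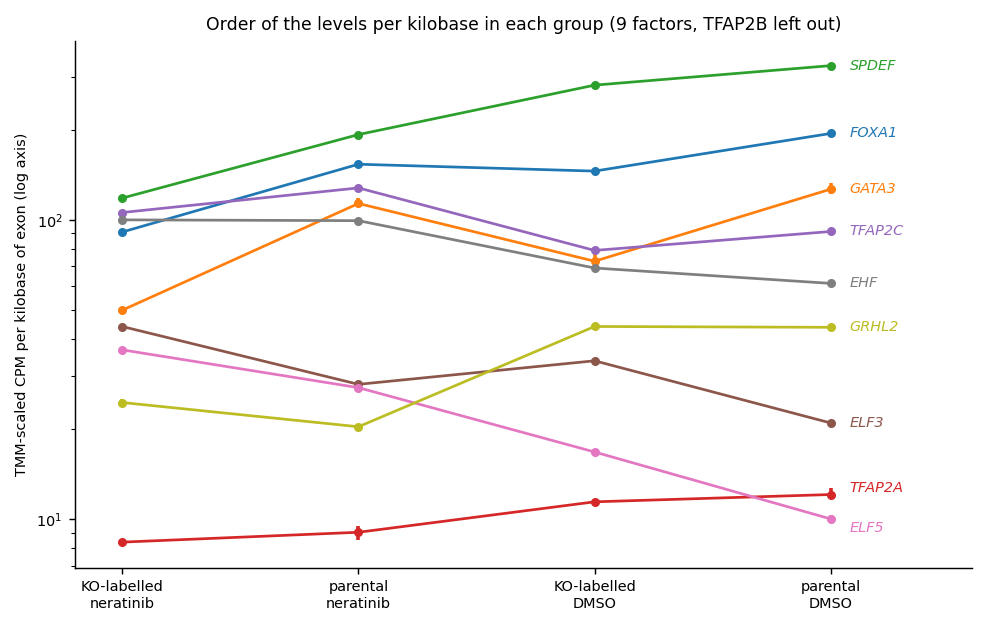
Mean TMM-scaled CPM per kilobase of exon (log axis) of 9 factors in the 4 groups, with bars for the range of the 3 libraries; lines only join the points of a gene, and TFAP2B is left out as too low. SPDEF is highest in every group, while FOXA1 and GATA3 stand below TFAP2C and EHF in KO-labelled neratinib cells and above both in parental DMSO cells.

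A ratio of the per-kilobase levels within a library does not depend on the scaling between libraries. Ratios were taken for 2 pairs whose members moved in opposite directions, and other pairs were not computed. They restate the levels above and are not separate evidence of the shift. FOXA1 over ELF5 was 2.44, 2.53 and 2.45 in KO-labelled neratinib, 5.54, 5.65 and 5.51 in parental neratinib, 8.41, 8.79 and 8.77 in KO-labelled DMSO and 19.8, 19.7 and 18.6 in parental DMSO libraries. GATA3 over ELF3 was 1.13, 1.16 and 1.11 in KO-labelled neratinib, 3.90, 4.23 and 3.91 in parental neratinib, 2.09, 2.08 and 2.28 in KO-labelled DMSO and 6.24, 6.0 and 5.85 in parental DMSO libraries. The libraries of the 4 groups did not overlap in either ratio, and both ratios were lowest in KO-labelled neratinib cells.

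Genotype and drug were each compared in both settings of the other. Because TFAP2B passed the filter through the group where it was high, it is left out of these counts and its values are given as a description. In neratinib, 8 of the other 9 factors were called different between KO-labelled and parental cells (adjusted p below 0.05), against 71.6% of all genes tested, with 3 higher and 5 lower. In DMSO, 8 of 9 were called, again against 71.6% of all genes, with 3 higher and 5 lower. For neratinib against DMSO, 9 of 9 were called in KO-labelled cells, where 77.2% of all genes were, and 9 of 9 in parental cells, where 80.7% were, with 4 higher and 5 lower in each. At a common biological coefficient of variation of 1.86% small differences passed, so that most genes were called and the counts do not set these factors apart. The libraries of the compared groups did not overlap for 8, 8, 9 and 9 of the 9 factors in the order of these comparisons, beside 72.6%, 72.8%, 78.0% and 81.3% of all genes. Few reached 2-fold: 1 in neratinib and 0 in DMSO for the genotype, where 11.2% and 12.4% of all genes did, and 2 in KO-labelled and 2 in parental cells for the drug, where 14.7% and 20.8% did. The median log2 fold changes of the 9 were -0.11, -0.08, -0.45 and -0.16 in these 4 comparisons, beside -0.02, 0.00, 0.02 and 0.04 over all genes.

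**Figure D2:**
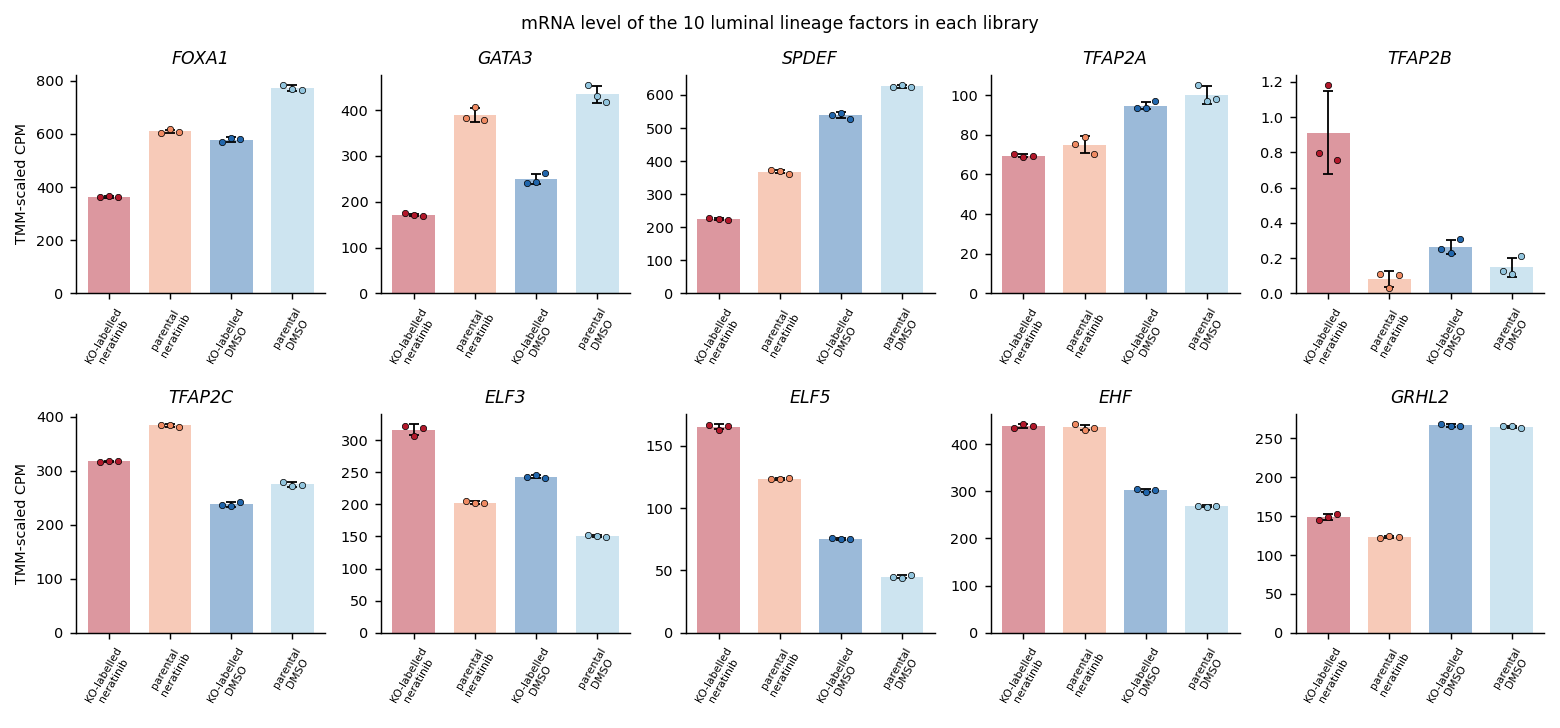
TMM-scaled CPM of each of the 10 factors in the 4 groups of 3 libraries; points are libraries, columns are means and bars are SD, and each panel has its own axis from 0. FOXA1, GATA3 and SPDEF are lowest in KO-labelled neratinib cells, and ELF3 and ELF5 are highest there.

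FOXA1 and GATA3 were lower in KO-labelled than in parental cells under both treatments. FOXA1, on chromosome 14 (37589984 to 37596059, minus strand, by GENCODE 29 on GRCh38, as for all genes below), was at 361.3, 364.9 and 360.8 CPM in KO-labelled and 604.6, 617.4 and 607.7 CPM in parental cells in neratinib. In DMSO it was at 568.2, 585.2 and 582.0 CPM in KO-labelled and 784.2, 767.4 and 766.5 CPM in parental cells. Each group stood apart from every other, with parental DMSO cells highest and KO-labelled neratinib cells lowest. The log2 fold change between KO-labelled and parental cells was -0.75 in neratinib (SE 0.019, edgeR's quasi-likelihood test, adjusted p = 5e-33) and -0.42 in DMSO (SE 0.018, adjusted p = 5.83e-24). Neratinib lowered FOXA1 mRNA by 1.60-fold in KO-labelled cells (log2 fold change -0.67) and by 1.27-fold in parental cells (-0.34). In bulk RNA, fewer cells expressing a gene and less RNA per cell cannot be told apart. Exons of FOXA1 overlap those of TTC6 on the opposite strand, and the unstranded libraries cannot tell from which strand a read there came. TTC6 itself was at 12.5 ± 0.711, 14.3 ± 0.763, 20.2 ± 0.877 and 27.0 ± 0.288 CPM in KO-labelled neratinib, parental neratinib, KO-labelled DMSO and parental DMSO cells (SD, n = 3 each).

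GATA3, on chromosome 10 (8045378 to 8075203, plus strand), had the largest genotype difference of the 9 well-expressed factors. Its level was 174.7, 170.7 and 169.0 CPM in KO-labelled and 382.4, 407.3 and 378.1 CPM in parental cells in neratinib, and 241.9, 244.2 and 263.1 CPM in KO-labelled and 455.1, 431.0 and 417.5 CPM in parental cells in DMSO. All KO-labelled libraries were below all parental ones. The difference was 2.27-fold in neratinib (log2 fold change -1.18, SE 0.028, edgeR's quasi-likelihood test, adjusted p = 3.44e-34) and 1.74-fold in DMSO (log2 fold change -0.80, SE 0.027, adjusted p = 2.14e-28). Neratinib lowered GATA3 by 1.46-fold in KO-labelled cells and by 1.12-fold in parental cells (log2 fold changes -0.54 and -0.16). The drug response in parental cells kept its direction and call under every alternative tried, but its log2 size ranged between -0.20 and -0.08, the smallest being with library totals alone, which shifted the median of all genes to 0.118. The 10 nearest tested neighbours of GATA3 on the chromosome had median log2 fold changes of -0.47 in neratinib and -0.45 in DMSO between KO-labelled and parental cells, with a range of -1.79 to 0.77 in DMSO. Those of FOXA1 had medians of -0.08 and 0.07, with a range of -2.02 to 0.71 in DMSO. Around the remaining factors the medians ran from -0.41 (TFAP2A) to 0.30 (GRHL2) in neratinib. In DMSO they ran from -0.18 (TFAP2A) to 0.45 (GRHL2), where GRHL2 itself differed by 0.01.

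Other cell identity markers moved with the genotype beside FOXA1 and GATA3. The basal or myoepithelial sums given above were higher in KO-labelled than in parental cells under both treatments, and so were the luminal sums. The 4 endothelial markers, 2 of them past the filter and led by VWF, summed to 36.8 to 41.0 CPM in KO-labelled and 14.4 to 15.3 CPM in parental cells in neratinib, and to 33.9 to 34.8 CPM in KO-labelled and 12.1 to 12.2 CPM in parental cells in DMSO. The 6 fibroblast markers, nearly all from COL1A1, summed to 113 to 117 CPM in KO-labelled and 89.2 to 92.5 CPM in parental cells in neratinib, and to 81.5 to 88.9 CPM in KO-labelled and 70.2 to 76.2 CPM in parental cells in DMSO. COL3A1 was called higher in KO-labelled cells in DMSO (log2 fold change 2.53). Its lowest KO-labelled library there was at 1.365 CPM and its highest parental one at 0.5017 CPM. Of its 283 counts in KO-labelled DMSO cells, however, 150 came from 1 library. For COL1A2, 1 library held all 9 counts in that group, and for the mesenchymal gene SPARC 44 of 49. The levels of these genes in KO-labelled DMSO cells therefore lean on 1 library each. PDGFRB and LUM were at 0 in both parental groups, but had only 2 and 6 summed counts in KO-labelled neratinib and 1 and 8 in KO-labelled DMSO cells. The 5 immune markers, of which CD68 and LYZ passed the filter, summed to 7.13 to 7.40 CPM in KO-labelled and 6.13 to 7.52 CPM in parental cells in neratinib, and to 5.25 to 6.04 CPM in KO-labelled and 3.41 to 4.18 CPM in parental cells in DMSO. CD68 was called higher in KO-labelled cells in DMSO. LYZ reached the filter level in 3 of 3 libraries only in KO-labelled neratinib cells and is given without a test. Its DMSO libraries overlapped, at 0.227 to 0.608 CPM in KO-labelled and 0.0503 to 0.238 CPM in parental cells. CD3E had 1 count over the 3 KO-labelled neratinib libraries and 0 in the other groups. The part of these markers in the changes of the 10 factors was not tested.

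SPDEF, an ETS factor of luminal and secretory epithelia on chromosome 6 (34537802 to 34556333, minus strand), had the largest drug-related fall of the 10 in KO-labelled cells. It was at 229.3, 225.9 and 223.1 CPM in neratinib and 540.1, 546.7 and 528.3 CPM in DMSO in KO-labelled cells, and at 371.7, 371.4 and 361.7 CPM in neratinib and 623.7, 630.2 and 622.8 CPM in DMSO in parental cells. Drug-treated libraries were below solvent libraries in both genotypes, and KO-labelled libraries were below parental ones under both treatments. Neratinib lowered SPDEF by 2.38-fold in KO-labelled cells (log2 fold change -1.25, SE 0.019, edgeR's quasi-likelihood test, adjusted p = 2.68e-41) and by 1.70-fold in parental cells (-0.76, SE 0.019, adjusted p = 5.84e-34). The genotype difference was small in DMSO (log2 fold change -0.22) and larger in neratinib (-0.70).

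The epithelium-specific ETS genes ELF3, ELF5 and EHF went the other way with the drug, each higher in neratinib than in DMSO in both genotypes. ELF5, on chromosome 11 (34478793 to 34513805, minus strand), was at 166.9, 163.0 and 166.0 CPM in neratinib and 76.3, 75.1 and 74.9 CPM in DMSO in KO-labelled cells. In parental cells it was at 123.1, 123.3 and 124.5 CPM in neratinib and 44.8, 43.9 and 46.6 CPM in DMSO. The 4 groups did not overlap, and KO-labelled neratinib cells were highest. The drug raised ELF5 by 2.19-fold in KO-labelled cells (log2 fold change 1.13, SE 0.024, edgeR's quasi-likelihood test, adjusted p = 1.97e-36) and by 2.74-fold in parental cells (1.46, SE 0.026, adjusted p = 5.14e-39). Between KO-labelled and parental cells it was higher by log2 0.42 in neratinib and 0.74 in DMSO.

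ELF3, on chromosome 1 (202007945 to 202017188, plus strand), was at 322.8, 306.8 and 319.9 CPM in KO-labelled and 205.0, 201.5 and 202.4 CPM in parental cells in neratinib. In DMSO it was at 242.2, 246.3 and 241.2 CPM in KO-labelled and 152.7, 150.3 and 149.5 CPM in parental cells. Its effects were close to each other in both settings: the genotype difference was log2 0.64 (SE 0.020) in neratinib and 0.69 (SE 0.021) in DMSO, and the drug response was 0.38 in KO-labelled and 0.43 in parental cells. Its exons overlap those of the antisense gene ELF3-AS1, whose reads could not be separated here.

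EHF, on chromosome 11 (34621093 to 34661057, plus strand), lies 107.3 kb from ELF5 with 0 protein-coding genes between them. It was at 434.5, 441.8 and 438.0 CPM in KO-labelled and 442.2, 430.7 and 433.5 CPM in parental cells in neratinib, where the libraries overlapped. In DMSO it was at 305.8, 299.5 and 302.6 CPM in KO-labelled and 269.8, 267.2 and 269.6 CPM in parental cells, which did not. EHF was thus called higher in KO-labelled cells in DMSO (log2 fold change 0.17, edgeR's quasi-likelihood test, adjusted p = 6.18e-11), while in neratinib its difference was 0.01 with a 95% interval of -0.03 to 0.04 and its sign varied with the scaling. Neratinib raised EHF by 1.45-fold in KO-labelled and 1.62-fold in parental cells (log2 fold changes 0.53 and 0.70).

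**Figure D3:**
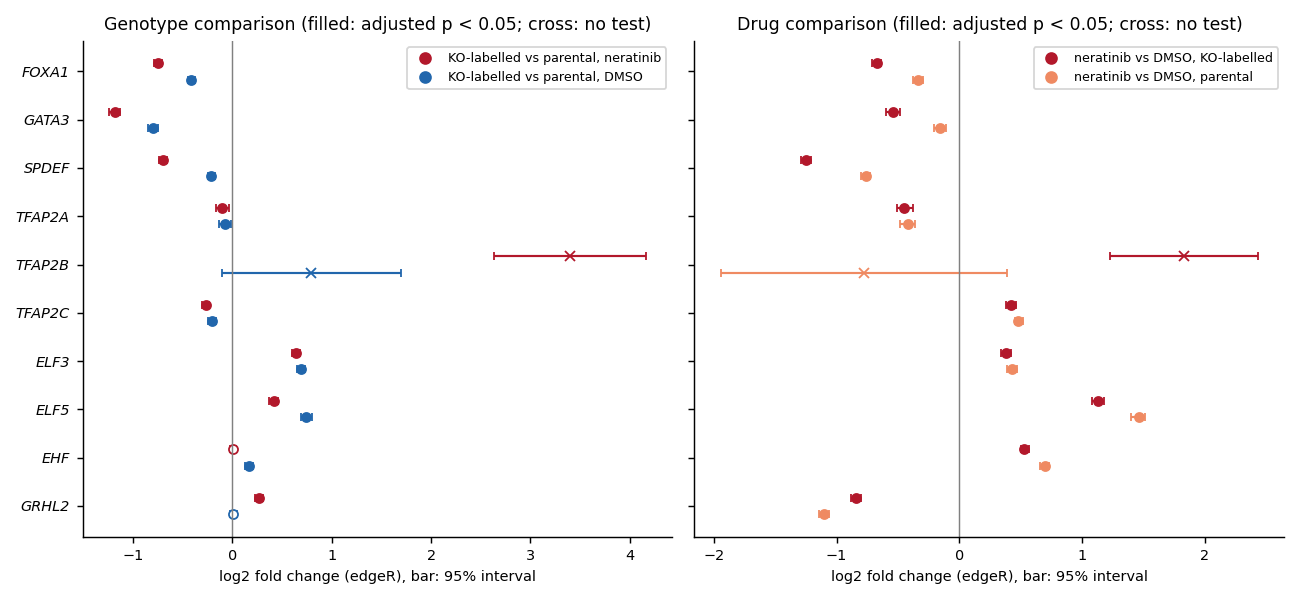
edgeR log2 fold changes of the 10 factors with 95% intervals that were fitted for TFAP2B too, though it is marked by a cross and carries no test; left, KO-labelled against parental cells in neratinib (red) and DMSO (blue); right, neratinib against DMSO in KO-labelled (red) and parental (orange) cells; open points were not called. GATA3 lies farthest left in the genotype panel, at -1.18 in neratinib, and SPDEF farthest left in the drug panel, at -1.25 in KO-labelled cells.

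The AP-2 genes did not move as a family. TFAP2C, on chromosome 20 (56629302 to 56639283, plus strand) and the best expressed of the 3, was at 316.7, 317.2 and 318.6 CPM in KO-labelled and 385.0, 384.8 and 381.0 CPM in parental cells in neratinib. In DMSO it was at 235.6, 234.7 and 241.7 CPM in KO-labelled and 278.9, 270.8 and 273.8 CPM in parental cells. It was higher with the drug in both genotypes (log2 fold changes 0.42 in KO-labelled and 0.48 in parental cells) and lower in KO-labelled cells under both treatments (-0.27 in neratinib, adjusted p = 2.44e-17, and -0.21 in DMSO, adjusted p = 2.64e-13, edgeR's quasi-likelihood test).

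TFAP2A, on chromosome 6 (10393186 to 10419659, minus strand), was lower with the drug, by 1.36-fold in KO-labelled and 1.34-fold in parental cells (log2 fold changes -0.45 and -0.42). It was at 69.4 ± 0.843 CPM in KO-labelled and 74.9 ± 4.22 CPM in parental cells in neratinib, and at 94.7 ± 1.81 CPM in KO-labelled and 100.1 ± 4.36 CPM in parental cells in DMSO (SD, n = 3 each). The genotype difference was called in neratinib (log2 fold change -0.11, adjusted p = 0.00287) and in DMSO (-0.08, adjusted p = 0.0132, edgeR's quasi-likelihood test). The call in DMSO rested on parental DMSO replicate 1, at 105.1 CPM, without which it was -0.05 (adjusted p = 0.177). Exons of the antisense gene TFAP2A-AS1 overlap those of TFAP2A, and its own level was at most 0.86 CPM on average in any group.

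TFAP2B, on chromosome 6 (50818723 to 50847613, plus strand), was barely detected. Its raw counts were 27, 50 and 27 in KO-labelled and 5, 1 and 4 in parental libraries in neratinib, and 10, 10 and 10 in KO-labelled and 5, 4 and 8 in parental libraries in DMSO. The KO-labelled neratinib libraries were thus above all others. Summed over the group and scaled for depth, the ratio of KO-labelled to parental cells was 10.9 in neratinib (95% interval 5.70 to 23.4) and 1.75 in DMSO (0.933 to 3.38). For neratinib against DMSO it was 3.59 (2.37 to 5.59) in KO-labelled and 0.575 (0.235 to 1.33) in parental cells. These intervals cover counting error only, and the 50 counts came from a single library. No test is given, since only the KO-labelled neratinib libraries carried TFAP2B past the filter. The intervals of the DMSO genotype and parental drug comparisons include 1.

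GRHL2, on chromosome 8 (101492432 to 101669726, plus strand), was lower with the drug in both genotypes and had the largest fall of the 10 in parental cells. It was at 144.8, 148.4 and 153.1 CPM in neratinib and 268.3, 266.5 and 265.5 CPM in DMSO in KO-labelled cells, and at 122.3, 124.3 and 123.6 CPM in neratinib and 266.2, 265.5 and 263.5 CPM in DMSO in parental cells. The genotypes overlapped in DMSO and were apart in neratinib. Exons of the antisense gene AP001207.3 overlap those of GRHL2. Neratinib lowered GRHL2 by 1.79-fold in KO-labelled cells (log2 fold change -0.84, SE 0.020, edgeR's quasi-likelihood test, adjusted p = 4.48e-34) and by 2.15-fold in parental cells (-1.10, SE 0.021, adjusted p = 2.28e-38). Between KO-labelled and parental cells it was higher in neratinib (0.27, SE 0.022), while in DMSO its difference was 0.01 with a 95% interval of -0.03 to 0.05 and a sign that varied with the scaling. CDH1, the adhesion gene that GRHL2 maintains in epithelia, was at 952.4 ± 3.93 CPM in KO-labelled and 913.9 ± 10.9 CPM in parental cells in neratinib and at 944.7 ± 7.79 CPM in KO-labelled and 827.5 ± 12.8 CPM in parental cells in DMSO (SD, n = 3 each), log2 differences of 0.06 in neratinib and 0.19 in DMSO that were both called.

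Whether the drug response differed between genotypes was tested as the interaction, the log2 response in KO-labelled cells less the log2 response in parental cells. It was called for 6 of the 9 factors other than TFAP2B, where 46.1% of all genes were called, with 1 higher and 5 lower (21.5% and 24.6% of all genes). SPDEF (-0.49, SE 0.027, adjusted p = 2.52e-19), GATA3 (-0.38, SE 0.038, adjusted p = 2.39e-11) and FOXA1 (-0.33, SE 0.026, adjusted p = 2.24e-14) fell more with the drug in KO-labelled cells (edgeR's quasi-likelihood test). ELF5 (-0.32) and EHF (-0.16) rose less in KO-labelled cells, and GRHL2 (0.26) fell less. The interactions of ELF3 (-0.05, 95% interval -0.11 to 0.01), TFAP2A (-0.03, -0.11 to 0.06) and TFAP2C (-0.06, -0.12 to -0.01, adjusted p = 0.052) were not called.

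The genes most like each factor over the 12 libraries were found by the root mean square difference of their centred log2 CPM, among 11094 genes with a mean of at least 5 CPM. This is a description, and the 12 libraries fall into 4 groups, so many genes can come close. SPDEF was nearest to XBP1 (difference 0.0572), a transcription factor of secretory cells that is also expressed in luminal breast cancer. XBP1 was at 396.1 ± 5.54 CPM in KO-labelled and 614.6 ± 11.1 CPM in parental cells in neratinib, and at 873.4 ± 4.73 CPM in KO-labelled and 1112 ± 14.4 CPM in parental cells in DMSO (SD, n = 3 each). FOXA1 was nearest to MIA2 (0.0319) and MRPL48 (0.0335), and GATA3, less closely, to FZD4 (0.0923) and NUPR1 (0.0936). ELF5 was nearest to CYP4B1 (0.0657) and TGIF1 (0.0873), ELF3 to SRGAP2 (0.0464) and AGAP1 (0.0497), and EHF to EXOC1 (0.0286) and NSMCE2 (0.0335). TFAP2C was nearest to ZMYND8 (0.0210) and NORAD (0.0242), TFAP2A to UBAP2L (0.0354) and MRPS10 (0.0366), and GRHL2 to ACTR3 (0.0221) and SLC39A14 (0.0352). SPDEF's second neighbour was RBM45 (0.0715), and those of TFAP2B, at its low counts, were KRT80 (0.187) and CGNL1 (0.195). Among the 10 factors themselves the closest pairs were TFAP2C with EHF (0.187), FOXA1 with GATA3 (0.221) and FOXA1 with SPDEF (0.261).

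Relatives of the factors from the same DNA-binding families were more often higher than lower in KO-labelled cells. Of the 15 tested of 23 listed, 7 were higher and 1 lower in neratinib, and 11 were higher and 2 lower in DMSO, with median log2 fold changes of 0.12 and 0.17. Both counts of higher genes keep TFCP2L1, which passed the filter through KO-labelled libraries. It was at 0.475 and 0.604 CPM on average in KO-labelled and 0.163 and 0.346 CPM in parental cells in neratinib and DMSO. The counts without it were not computed. GATA6, an endodermal relative of GATA3, was higher in KO-labelled cells in both settings, at 45.4 ± 2.75 CPM in KO-labelled and 26.8 ± 0.278 CPM in parental cells in neratinib and at 29.4 ± 0.737 CPM in KO-labelled and 19.1 ± 0.797 CPM in parental cells in DMSO (SD, n = 3 each). With the drug, 6 relatives rose and 7 fell in KO-labelled cells, and 6 rose and 8 fell in parental cells. The rises in parental cells include FOXA3, which reached the filter level in neratinib libraries only. The genes named next were ranked among relatives with a mean of at least 1 CPM in either group. GRHL1, a paralog of GRHL2, had the largest rise in parental cells (log2 fold change 0.85), opposite to GRHL2. It went to 192.6 ± 1.83 CPM in neratinib, against 107.1 ± 2.15 CPM in DMSO. ELF1 had the largest rise in KO-labelled cells (0.74) and GRHL3 the largest fall there (-1.44). GRHL3 was at 1.43 ± 0.0727 CPM in neratinib and 3.94 ± 0.535 CPM in DMSO in KO-labelled cells.

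Other regulators of the luminal lineage fell more often than they rose with the drug. Of 29 tested of 31 listed, 9 rose and 19 fell in KO-labelled and likewise in parental cells, with medians of -0.69 and -0.48. Among those with a mean of at least 1 CPM in either group, BHLHE40, a basic helix-loop-helix repressor, had the largest fall in both. It was at 2.86 ± 0.425 CPM in neratinib and 11.4 ± 0.598 CPM in DMSO in KO-labelled cells. In parental cells it was at 6.67 ± 0.394 CPM in neratinib and 27.4 ± 0.957 CPM in DMSO (SD, n = 3 each). CITED2, a transcriptional co-regulator, had the largest rise in both (log2 fold changes 1.38 in KO-labelled and 1.85 in parental cells). Between genotypes 8 were higher and 15 lower in neratinib, and 13 were higher and 16 lower in DMSO. The 16 keep FOXI1, which passed the filter through parental DMSO libraries, at 0.295 to 0.428 CPM there. It is also among those that fell with the drug in parental cells. PGR, the progesterone receptor, had the largest fall in neratinib, at 75.6 ± 2.98 CPM in KO-labelled and 192.6 ± 4.29 CPM in parental cells (log2 fold change -1.35), and NOTCH1, a receptor that favours luminal fate in mice, the largest rise (1.06).

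Structural and secreted luminal genes also fell more often with the drug: of 32 tested, 9 rose and 20 fell in KO-labelled cells, and 8 rose and 22 fell in parental cells. KRT19, a luminal keratin, had the largest fall in KO-labelled cells, at 778.6 ± 10.8 CPM in neratinib and 2288 ± 27.5 CPM in DMSO (SD, n = 3 each). Between genotypes the list was divided, with 14 higher and 13 lower in neratinib and 20 higher and 12 lower in DMSO. PROM1, a surface marker of luminal progenitors in mice, had the largest rise in KO-labelled cells under both treatments, at 14.4 ± 0.880 CPM in KO-labelled and 1.87 ± 0.255 CPM in parental cells in neratinib and at 5.10 ± 0.225 CPM in KO-labelled and 0.5 ± 0.175 CPM in parental cells in DMSO. TFF1, a secreted protein and oestrogen receptor target, was the largest fall in neratinib (log2 fold change -2.41, at 23.0 ± 0.762 CPM in KO-labelled and 122.4 ± 2.37 CPM in parental cells).

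Basal and mesenchymal genes were more often higher than lower in KO-labelled cells: of 26 tested of 34 listed, 15 were higher and 2 lower in neratinib, and 15 were higher and 4 lower in DMSO, with medians of 0.60 and 0.46. These counts keep low genes that passed the filter through KO-labelled libraries. TWIST2 was one, at 0.303 and 0.338 CPM on average in KO-labelled and 0.0173 and 0.112 CPM in parental cells in neratinib and DMSO. FOXC1 was another, with parental libraries at most at 0.218 CPM. The counts without such genes were not computed. Among genes with a mean of at least 1 CPM in either group, LAMB3, a laminin chain of the basement membrane, had the largest rise in both. It was at 16.0 ± 0.455 CPM in KO-labelled and 5.84 ± 0.239 CPM in parental cells in neratinib. In DMSO it was at 9.67 ± 0.598 CPM in KO-labelled and 3.26 ± 0.118 CPM in parental cells (SD, n = 3 each). With the drug, 10 rose and 7 fell in KO-labelled cells, and 7 rose and 11 fell in parental cells. Alveolar secretory genes, a list that includes milk genes that ELF5 is known for, were higher for 8 and lower for 4 of 14 tested of 23 listed in neratinib, and higher for 7 and lower for 4 in DMSO, between KO-labelled and parental cells. The milk genes CSN1S1, CSN2, CSN3 and LALBA were not among the 14. CSN2 and LALBA had 0 counts in every group, and CSN1S1 and CSN3 had at most 3 and 1 counts summed over a group. TCN1, a vitamin B12-binding protein, had the largest fall, at 8.22 ± 0.412 CPM in KO-labelled and 600.3 ± 8.26 CPM in parental cells in neratinib and at 8.58 ± 0.340 CPM in KO-labelled and 856.7 ± 7.56 CPM in parental cells in DMSO. For neratinib against DMSO, 4 of these 14 rose and 6 fell in KO-labelled cells, and 5 rose and 7 fell in parental cells. For comparison, the shares of all genes called higher and lower were 34.7% and 36.9% for the genotype in neratinib, 36.0% and 35.6% for it in DMSO, 38.9% and 38.4% for the drug in KO-labelled cells and 41.8% and 38.9% for it in parental cells.

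**Figure D4:**
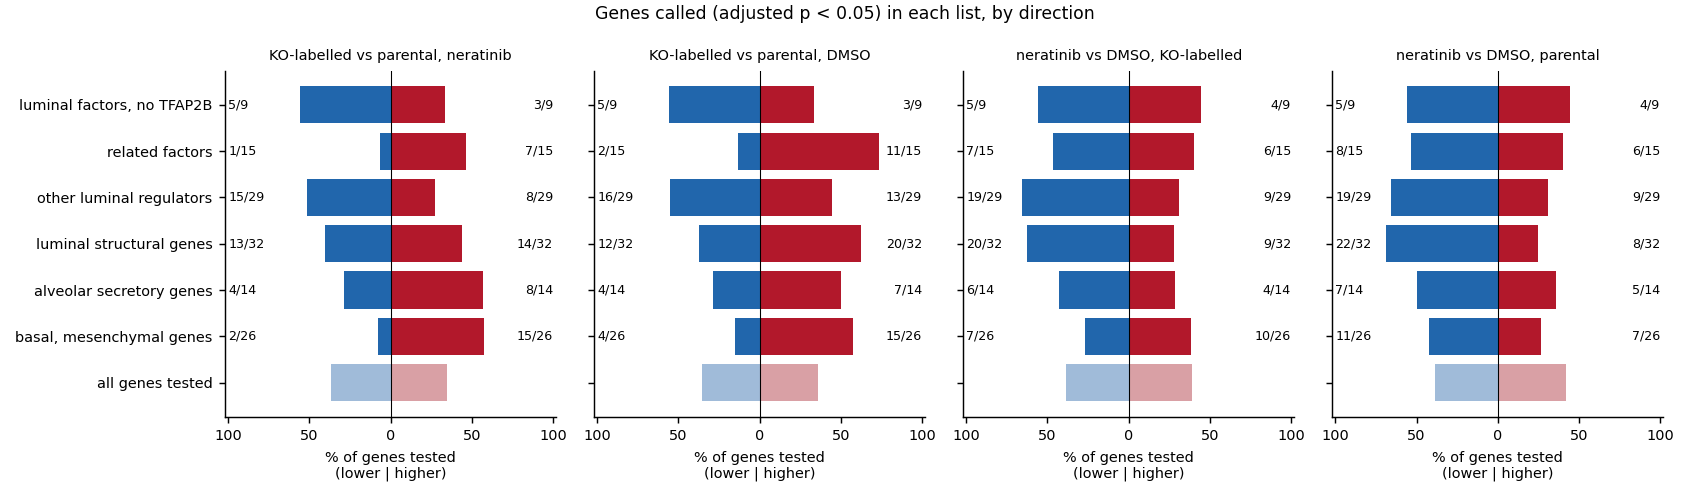
Share of the tested genes of each list that were called lower (left of 0) or higher (right of 0) in the 4 comparisons, with counts beside the bars, TFAP2B left out of the luminal factors, and all 16208 genes in pale bars at the bottom. Basal and mesenchymal genes lean to the right for the genotype, with 15 of 26 higher under both treatments, and other luminal regulators lean to the left for the drug, with 19 of 29 lower in both genotypes. The 26 include low genes, TWIST2 and FOXC1 among them, that passed the filter through KO-labelled libraries. TFCP2L1 among the related factors passed in the same way, and FOXI1 among the luminal regulators through parental DMSO libraries.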

How the data were processed

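Messenger RNA was measured in 12 BT474 libraries, 3 in each of 4 groups. Per the labels' protocols, libraries came from the TruSeq RNA v2 kit (poly(A) selection, unstranded) and were read as single ends. The authors deposited 1 table of raw read counts per gene, not normalized. The submitters' processing notes name GRCh38, edgeR 3.40.2, STAR 2.7.9 and FastQC 0.11.7. The counter, its annotation and its strand mode are not given in the sources used here. Of 28395 rows, 581 carried no symbol and held 0.0877% to 0.124% of a library's counts; they were left out. Library totals were 32471198 to 44726160 counts, and replicates had Spearman correlations of 0.9983 to 0.9987.

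Counts were filtered with filterByExpr (minimum count 10), scaled by TMM and fitted with edgeR 4.0.16 (R 4.3.3) as a mean per group over all 12 libraries, with 8 residual degrees of freedom. The quasi-likelihood test was adjusted by Benjamini-Hochberg over 16208 genes, with calls below 0.05. The fit was also tested on simulated data. Between-gene levels used exon lengths from GENCODE 29. Alternatives were DESeq2 1.42.0, its size factors, library totals, other filters, a replicate block and leaving out each library. The 10 factors and the gene lists were chosen with earlier results of these data known. All 10 factors and BRD8 are named in every comparison; of each list, the called gene with the largest rise and fall at a mean of at least 1 CPM in either group, where a result turns on it; and for each factor its 2 most similar genes (log2 of CPM plus 0.5). One marker of the immune list is not reported here.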

Additional observations from a re-analysis of the deposited data

Results flagged for a closer look

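The neratinib response of 6 factors, of the 9 other than TFAP2B, differed between genotypes by the test of the difference itself (edgeR's quasi-likelihood interaction, adjusted over all genes, 46.1% of which were called). On the log2 scale, KO-labelled minus parental response was -0.49 for SPDEF, -0.38 for GATA3, -0.33 for FOXA1, -0.32 for ELF5, -0.16 for EHF and 0.26 for GRHL2. BRD8 itself had an interaction of -0.66 (adjusted p = 3e-20): its mRNA rose with the drug by log2 1.21 in KO-labelled and 1.88 in parental cells.

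Among 116 tested genes of the 5 other lists, 6 were called in opposite directions in the 2 genotypes with a called difference and at least 1 CPM in some group, which is 5.17% of them beside 3.17% (514) of all 16208 genes. The search was added after the data were seen and the shares were not tested against each other. SCUBE2, an oestrogen-responsive secreted protein, changed with neratinib by log2 0.62 in KO-labelled and -0.85 in parental cells (interaction 1.47). AGR3 changed by 0.28 in KO-labelled and -0.40 in parental cells (0.68), and TP63, the basal-cell factor, by 0.21 in KO-labelled and -0.45 in parental cells (0.66). EGFR changed by 0.17 in KO-labelled and -0.25 in parental cells (0.42). The reverse held for the zinc transporter SLC39A6, with -0.22 in KO-labelled and 0.16 in parental cells (-0.39), and for XDH, with -0.49 in KO-labelled and 0.39 in parental cells (-0.88).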

How the results depend on the processing

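Of 846 recomputed values of the 9 factors other than TFAP2B under other settings, 827 kept direction and call. Those that changed sign were uncalled differences near 0, and the cause was not tested. GRHL2 in DMSO between genotypes (0.01) was -0.01 with DESeq2 and with its size factors, and -0.01 to 0.01 with a library left out. EHF in neratinib between genotypes was 0.00 with library totals, -0.01 with no filter and 0.00 to 0.03 with a library left out. The TFAP2A interaction was -0.06 to 0.01 with a library left out. The TFAP2A genotype call in DMSO was lost with a 5 CPM filter (-0.06, adjusted p = 0.0777), and its leave-out range was -0.11 to -0.05. Interactions became called for TFAP2C with library totals (-0.09), with no filter (-0.07) and without KO-labelled DMSO replicate 2 or parental DMSO replicate 1 (-0.07 each), and for ELF3 with library totals (-0.07). BRD8 in DMSO lost its call with DESeq2's size factors (adjusted p = 0.0648), and also without KO-labelled DMSO replicate 1 or 3, parental DMSO replicate 2 or 3, or parental neratinib replicate 1 or 3 (0.05 to 0.08 over all leave-outs, adjusted p up to 0.105). Replicate numbers did not pair the samples: same-number libraries deviated with correlations of -0.122 to 0.069, and 2 of 12 correlated best with their own number. With the replicate number as a block, 11512 genes were called between genotypes in neratinib and 7349 in the interaction, against 11605 and 7468 without the block, and no call of a factor changed. Counting error bears most on TFAP2B, with 1 to 50 counts a library.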
